A study of Mus musculus with 192 samples.

Results

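The synaptic vesicle, SNARE and Rab genes are the genes whose products move, dock, fuse and recover membrane vesicles. They were chosen by symbol alone: rows with a single annotated mouse symbol of the Rab, Syt, Stx, Stxbp, Snap, Vamp, Syn, Sv2, Syp, Cplx or Nsf families. The rule matched 98 rows and 69 symbols, and 68 of these genes were measured, among 15610 features tested. The gene not measured was Stx18, whose single row had values on 63.2% of the arrays of its poorest dataset, where 80% was required. A Rab13 row at 61.8% was also left out, and the rows just inside were those of Rab1a at 80.9%, Rab5c at 81.5% and Snap23 at 82.4%. The measured genes were 36 Rab GTPases, 8 Rab-binding or Rab-regulating proteins, 9 syntaxins, 4 syntaxin-binding proteins, 4 VAMP genes, 2 SNAP genes, 2 synapsin and Sv2 genes, 1 complexin, 1 synaptotagmin and Nsf. Of 16 genes listed as the core of fast transmitter release, 5 were measured (Cplx1, Syn1, Sv2a, Vamp2 and Nsf), and the others, such as Snap25 and Syt1, were not analysed here. The set is therefore mostly genes of general membrane traffic.

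Samples were cubes of brain tissue (voxels) from C57BL/6 male mice of postnatal day 56, each co-hybridised on a 2-colour array with RNA of whole mouse brain. The RNA is labelled as coming from pooled voxels, and how many animals were pooled is not given in the sources used here. Positions were laid out on a grid with rows A to G and columns 1 to 11, with 68 positions and 192 arrays, from 3 separate harvests (datasets 1 to 3, with 59, 68 and 65 arrays). There were 56 positions in 3 datasets and 12 in 2, and the labels give no anatomical direction. Voxel RNA carried Cy5 in dataset 2 and Cy3 in datasets 1 and 3. All values are log2 ratios that the authors had centred on each row's own median, so they compare positions within a gene and not one gene with another or a voxel with whole brain. A positive value probably stands for more voxel RNA, although the numerator of the ratio is not stated. A voxel mixes cell types, and fewer cells of a type and less RNA per cell cannot be told apart.

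In dataset 2, 6 arrays of row D (D1 to D3 and D5 to D7) went against their labels. Over the 166 genes of the set and of the lists used here, 6 of 6 correlated better with datasets 1 and 3 when these columns were read in reverse order than as labelled. The array labelled D2, for example, had a mean correlation of -0.17 with D2 and 0.57 with D6 of the other datasets. The labels were kept, and several results that rest on these arrays are also given without them. The correlations with marker lists are given only with them.

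At a nerve terminal, a vesicle SNARE of the VAMP family pairs with a syntaxin and a SNAP protein on the target membrane, and this pairing draws the membranes together. Complexins bind the assembled SNARE complex and some synaptotagmins sense calcium, while Nsf takes the spent complexes apart. Synapsins tether vesicles in the reserve pool, and Rab GTPases mark compartments and recruit the proteins that carry vesicles between them.

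The positions differed for 2 of the 68 genes, Cplx1 and Syn1, which are both neuronal and act at the terminal. This is 2.94% of the set, against a background of 4.91% of all features (767 of 15610; limma moderated F test over positions with dataset as a block, Benjamini-Hochberg adjusted p under 0.05 over all features). At an unadjusted p under 0.05 there were 7 genes, or 10.3% of the set, against 13.3% of all features. The median F of the set was 1.03, and that of all features was 1.04. The share called is thus not above the background, and what follows describes 2 genes with a spatial pattern and 66 without a called one.

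The promoters of these 2 genes, and of Rab22a, which had the lowest F of the set, are shown because they stand at the opposite ends of the position test. The F of Rab22a (0.406) is that of an average of 2 rows that correlated at -0.36 and had an F of 0.677 and 0.988 on their own. They are RefSeq sequences of build GRCm38.p6, from 250 bases before to 50 bases after the start, with searched motifs in capitals on either strand. Syn1 lies at chrX:20920869-20921168 on the minus strand, Cplx1 at chr5:108549978-108550277 on the minus strand, and Rab22a at chr2:173659595-173659894 on the plus strand.
Syn1: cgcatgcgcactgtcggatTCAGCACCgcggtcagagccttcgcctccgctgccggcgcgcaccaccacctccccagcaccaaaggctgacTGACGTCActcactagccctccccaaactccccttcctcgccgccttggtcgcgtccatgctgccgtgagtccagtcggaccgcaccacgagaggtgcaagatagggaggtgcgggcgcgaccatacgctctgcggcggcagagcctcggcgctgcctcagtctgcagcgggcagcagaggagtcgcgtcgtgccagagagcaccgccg
Cplx1: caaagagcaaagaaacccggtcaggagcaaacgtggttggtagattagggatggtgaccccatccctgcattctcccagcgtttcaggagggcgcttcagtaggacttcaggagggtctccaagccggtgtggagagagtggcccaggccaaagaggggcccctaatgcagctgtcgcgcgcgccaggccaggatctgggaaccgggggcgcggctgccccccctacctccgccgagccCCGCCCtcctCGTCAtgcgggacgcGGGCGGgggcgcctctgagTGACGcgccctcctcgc
Rab22a: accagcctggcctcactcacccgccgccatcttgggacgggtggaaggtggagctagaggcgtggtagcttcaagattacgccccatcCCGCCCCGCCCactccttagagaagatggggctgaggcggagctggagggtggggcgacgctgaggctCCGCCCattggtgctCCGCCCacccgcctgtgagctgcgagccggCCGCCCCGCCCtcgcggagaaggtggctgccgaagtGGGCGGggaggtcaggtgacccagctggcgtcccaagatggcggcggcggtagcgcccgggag

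The Syn1 window held TCAGCACC, the left part of the element bound by the repressor REST, at -231. It also held TGACGTCA, the cyclic AMP response element, at -159, which overlaps both of its matches to the shorter form TGACG. The Cplx1 window held 2 matches to TGACG and 2 to the GC box GGGCGG, and the Rab22a window held 7 to GGGCGG. Of 32851 promoters of the same length, 1.65% held TCAGCACC, 1.79% TGACGTCA, 20.8% TGACG and 35.7% GGGCGG. Among the 58 genes of the set matched to a promoter, 3 held TCAGCACC, 3 TGACGTCA, 33 TGACG and 42 GGGCGG in at least 1 window. Counted per window, these were 4.23%, 4.23%, 47.9% and 66.2% of the 71 promoters of the set. A match describes letters only.

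Cplx1 encodes complexin 1, the small protein that clamps and then aids SNARE-driven fusion. Its F over positions was 3.69 (limma adjusted p = 2.2e-08). It was highest at C8, with 0.85, 2.31 and 0.10 in datasets 1 to 3 (mean 1.09 ± 1.12, SD, n = 3), followed by F9 with 0.31, 1.57 and 1.25 and F3 with 0.09, 1.87 and 0.98. Dataset 2 had the highest of the 3 values at each of these positions. The lowest position was B6, with -0.73, -1.11 and -1.16 (mean -1.0 ± 0.23), and next was C1 with -0.83, -0.67 and -0.90 (-0.80 ± 0.12). All values at B6 and C1 lay below all values at C8, F9 and F3, and the low positions varied less between datasets than the high ones. These positions were picked as extremes of the map, so their separation carries no test. C4 and C8 together averaged 1.02 ± 0.77, while C1 and C11 at the ends of the same grid row averaged -0.76 ± 0.19. Both blocks were chosen after the values were seen. The Cplx1 map was also close to mirror-symmetric about column 6, with a Spearman rho of 0.785 over 29 pairs of positions, given as a description (0.755 without the 6 arrays of row D). Cplx1 was not called without dataset 2 (F 1.97, limma adjusted p = 0.183) or without dataset 3 (F 1.90, adjusted p = 0.101).

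**Figure D1:**
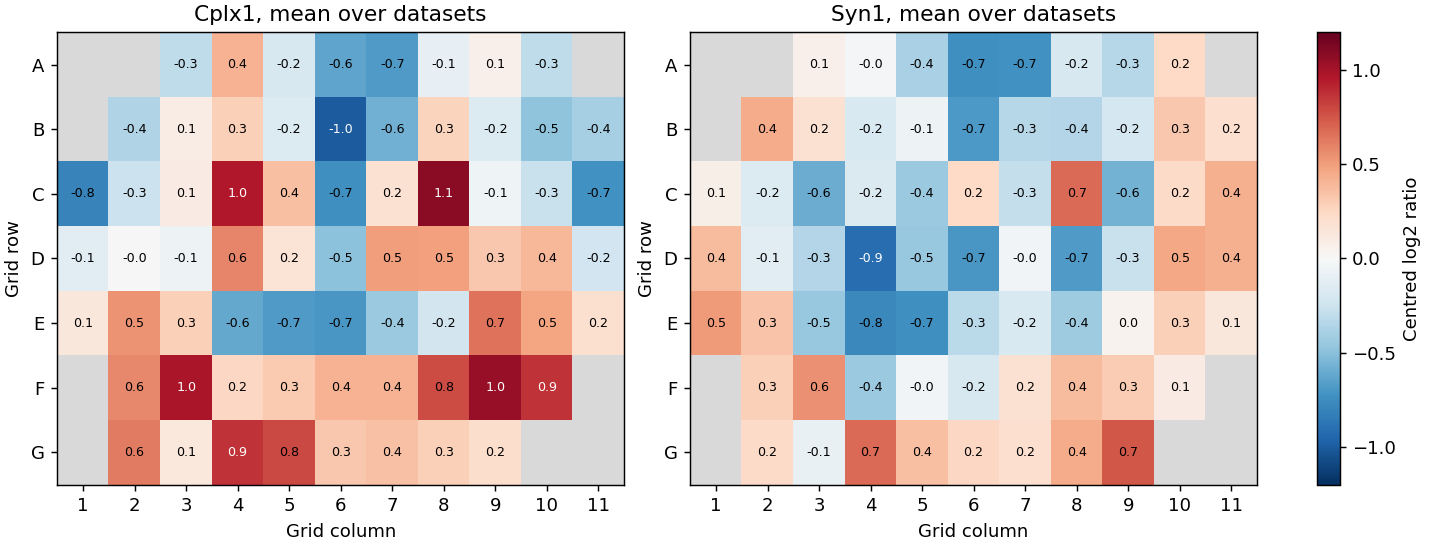
Maps of the mean centred log2 ratio over datasets for Cplx1 and Syn1, by grid row (A to G) and grid column (1 to 11); grey cells hold no position and the colour scale is in log2 units. Cplx1 is lowest at B6 (-1.0) and highest at C8 (1.09), and Syn1 is lowest at D4 (-0.92) and highest at G9 (0.75).

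Syn1 encodes synapsin 1, the phosphoprotein that holds vesicles in the reserve pool. Its F was 2.96 (limma adjusted p = 7.4e-06). It was lowest at D4, with -1.09, -1.50 and -0.16 (mean -0.92 ± 0.69, SD, n = 3), and at E4, with -1.22, -0.97 and -0.13 (-0.77 ± 0.57). It was highest at G9, with 0.11, 0.97 and 1.16 (0.75 ± 0.56), and at G4, with 0.23, 0.40 and 1.40 (0.68 ± 0.63). All values at D4 and E4 were below 0 and all values at G9 and G4 above 0. These positions were picked as extremes of the map, so their separation carries no test. C8 ranked second for Syn1 but ranged across datasets, with -0.50, 0.55 and 1.98. Its -0.50 in dataset 1 lay below the -0.16 of D4 in dataset 3. The mirror rho of Syn1 over 29 pairs was 0.520, or 0.551 without the 6 arrays of row D. Without them its lowest position was D6 (-1.23 and -0.65 in datasets 1 and 3) and its highest D1 (0.17 and 1.51), its F was 3.16 (limma adjusted p = 1.9e-06), and that of Cplx1 was 3.89 (adjusted p = 7.3e-09). Syn1 stayed called with any 1 dataset left out, and was not called with no dataset block (F 1.73, limma adjusted p = 0.135).

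The means of both genes along the grid rows and by distance from column 6 are given as a description. Cplx1 averaged -0.40 ± 0.32 in column 6, 0.39 ± 0.38 at 2 columns away and -0.28 ± 0.32 at 5 columns away (SD over n = 3 datasets), so its means were highest part of the way out. Syn1 averaged -0.31 ± 0.35 in column 6 and 0.31 ± 0.39 at 5 columns away, with means in increasing order in between. Without the 6 arrays of row D these means were -0.41, 0.39 and -0.29 for Cplx1, and -0.31 and 0.34 for Syn1. Along the grid rows Cplx1 was highest in row F (0.62 ± 0.83), but that mean held -0.25 in dataset 1 beside 1.40 and 0.71 in datasets 2 and 3. Syn1 was highest in row G (0.40 ± 0.38), where its dataset means were 0.09, 0.27 and 0.83. These SDs include shifts of whole datasets: over all positions Cplx1 averaged -0.12, 0.47 and -0.14, and Syn1 -0.37, -0.10 and 0.29.

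**Figure D2:**
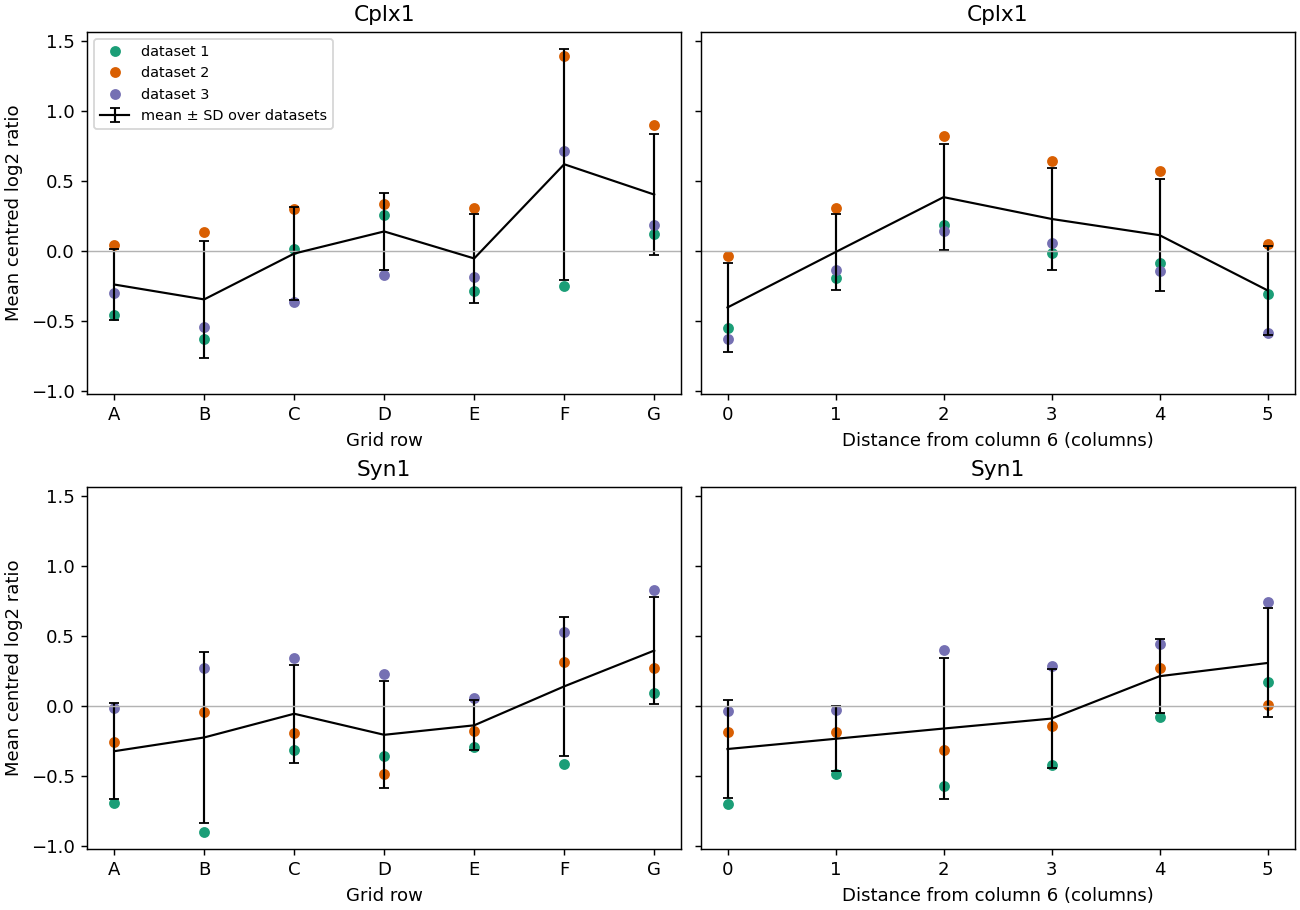
Mean centred log2 ratio of Cplx1 (upper panels) and Syn1 (lower panels) by grid row and by distance from column 6 in columns; points are dataset means and bars are the mean ± SD over 3 datasets. Cplx1 reaches its highest mean at a distance of 2 columns (0.39), and Syn1 at 5 columns (0.31).

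The maps of Cplx1 and Syn1 matched each other only in part, with a rho of 0.325 over 68 positions (0.320 without the 6 arrays of row D). They were low together at E4 to E8, where Cplx1 averaged -0.53 ± 0.08 and Syn1 -0.49 ± 0.22. They parted at D4, where Cplx1 averaged 0.59 ± 0.27 and Syn1 -0.92 ± 0.69, a difference of 1.5 ± 0.91 between the centred values. At C11 the order was the other way, with Cplx1 minus Syn1 at -1.15 ± 1.16, and at C6 it was -0.97 ± 0.76. E4 to E8 were chosen after the values were seen and the other positions were picked for their difference, so none carries a test.

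**Figure D3:**
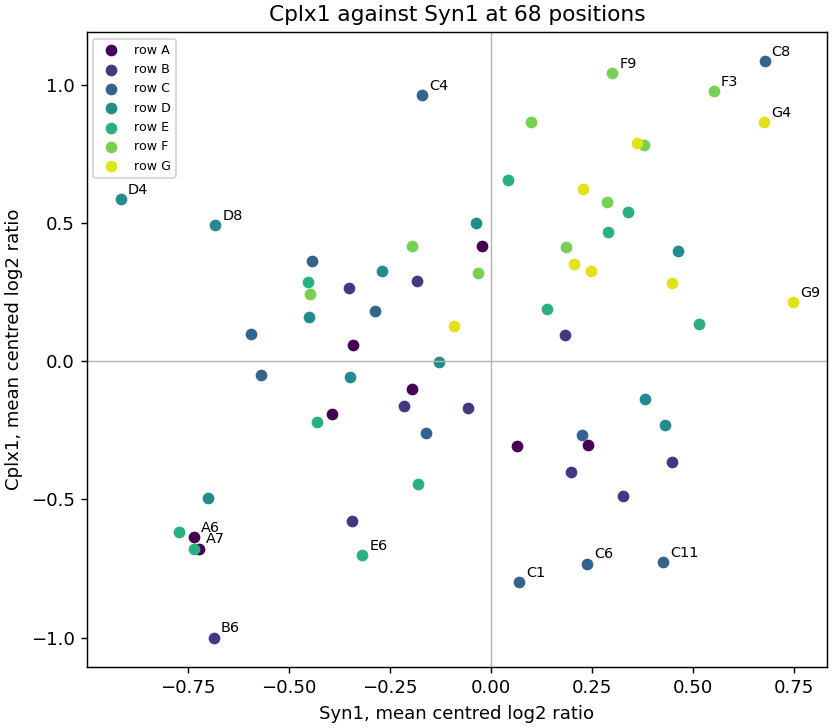
Mean centred log2 ratio of Cplx1 (vertical axis) against Syn1 (horizontal axis), with 1 point for each of 68 positions coloured by grid row. D4 and D8 lie at high Cplx1 and low Syn1, C1, C6 and C11 at low Cplx1, and the overall rho is 0.325.

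Marker lists differed between D4 and C4, where Cplx1 was above Syn1, and C1 and C11, where it was below. The 4 measured of 11 myelin genes averaged 0.98 ± 0.06 at D4 and 0.90 ± 0.14 at C4. At D4 the mean of the genes' own means was 0.88, since Mbp had no value there in dataset 1. The list averaged -1.18 ± 0.55 at C1, -0.78 ± 0.59 at C11 and 0.78 ± 0.21 at C8, where the means of Cplx1 and Syn1 were both high. Mbp did not pass the position test (F 1.02, limma adjusted p = 0.861). The striatal list (7 of 15 genes measured) averaged 1.04 ± 0.39 at D4 and -0.07 ± 0.14 at C1. The thalamus list (4 of 6 genes measured) averaged 0.67 ± 0.44 and -0.20 ± 0.22 there, and the cortical list -0.75 ± 0.07 and 0.21 ± 0.20. The thalamus list had its highest mean, 1.40, at C6, where Cplx1 was below Syn1, so it did not separate the 2 kinds of position. Its genes Lef1 and Rora did not pass the position test (limma adjusted p = 0.862 and 0.739). Over 68 positions the myelin list had a rho of 0.226 with Cplx1 and -0.515 with Syn1, and the cortical list (4 of 10 genes measured) 0.461 with Cplx1 and 0.60 with Syn1. The pan-neuronal list (3 of 8 measured) had 0.347 and 0.328. The points share arrays and array centring, and the part of tissue composition in either map was not tested. The choroid plexus list (2 of 4 genes measured) averaged 2.50 ± 0.38 at E6, where Cplx1 and Syn1 were both below 0. Of its genes, Ttr passed the position test (F 4.58, limma adjusted p = 2.8e-11) and Folr1 did not (F 1.32, adjusted p = 0.517).

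Maps were compared between datasets. The rho between maps of datasets 1 and 2, 1 and 3, and 2 and 3 was 0.377, 0.416 and 0.735 for Cplx1 and 0.390, 0.529 and 0.446 for Syn1. A rho above 0.3 in every pair was found for these 2 genes of the set, or 2.94%, against 1.75% of all features (273). The median over the set was 0.067, 0.016 and 0.017, and that over all features 0.068, 0.031 and 0.010, so the set as a whole recurred about as little as the rest of the array. Without the 6 arrays of row D the rho of datasets 2 and 3 was 0.777 for Cplx1 and 0.482 for Syn1. Rab22a had a rho of -0.59 between datasets 1 and 3, as the average of its 2 opposed rows.

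**Figure D4:**
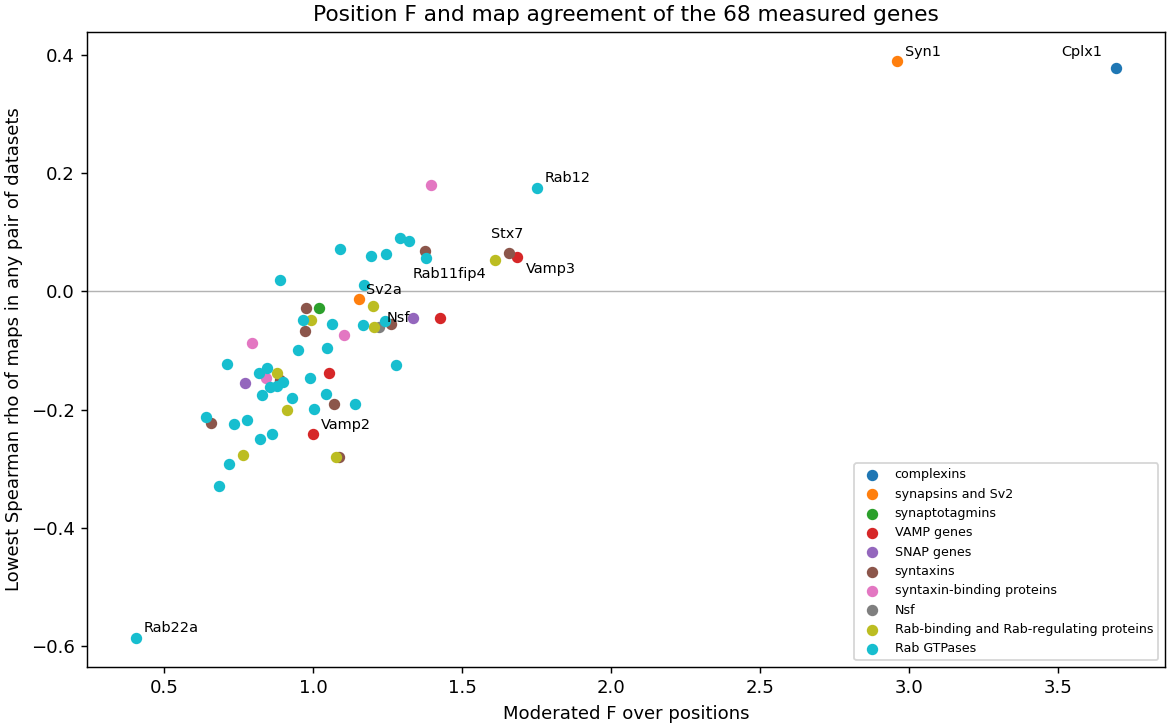
Moderated F over positions (horizontal axis) against the lowest Spearman rho of a gene's maps in any pair of datasets (vertical axis), with 1 point for each of the 68 measured genes coloured by role. Cplx1 (F 3.69) and Syn1 (F 2.96) lie apart at the upper right, and Rab22a (F 0.406) at the lower left.

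The remaining core release genes did not pass the position test. Vamp2, the main vesicle SNARE of the forebrain, had an F of 1.00 (limma adjusted p = 0.875). It was highest at F4, with 3.86, 1.42 and 1.31, and lowest at C10, with 0.09, 0.21 and -4.28, so its lowest mean rested on 1 array. Nsf had an F of 1.22 (adjusted p = 0.641), and it was low at E4 in every dataset, with -0.42, -0.86 and -0.57. Sv2a, a vesicle glycoprotein, had an F of 1.15 (adjusted p = 0.733) and was likewise lowest at E4, with -0.80, -0.38 and -0.30. Nsf was the gene of the set most like Syn1, with a rho of 0.503 over 68 positions, and Rab7, a late endosomal Rab, was most like Cplx1, with 0.677. Syt11, the only synaptotagmin measured and not one of the listed core genes, had an F of 1.02 (adjusted p = 0.861).

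Among the SNAREs of general traffic, Vamp3, an endosomal VAMP, had the largest F of its family at 1.68 (limma adjusted p = 0.0997), and Stx7, a late endosomal syntaxin, had 1.66 (adjusted p = 0.115). Stx7 was lowest at F4, with -0.86, -0.91 and -0.30, and highest at C5, with 0.01, 0.40 and 1.44. Stxbp6, which binds syntaxins, had an F of 1.40 (adjusted p = 0.395), and its highest mean, at C5, rested on 1 value of 6.97 beside 0.45 and -0.16. Snap23, the non-neuronal relative of SNAP-25, had an F of 1.34 (adjusted p = 0.481) as the average of 3 rows. One of those rows alone had an F of 2.00 (adjusted p = 0.0185), while the rows correlated with each other at -0.10 to -0.01, so it stays uncertain which row follows the gene. Of the 23 genes averaged from several rows, 13 had a pair of rows that correlated below 0.

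None of the 36 Rab GTPases passed the position test, and their F ranged from 0.406 to 1.75, with a median of 0.958; 1 had an unadjusted p under 0.05. Rab12, which acts in traffic to lysosomes, was the closest (F 1.75, limma adjusted p = 0.0660). It was lowest at F4, with -0.40, -0.63 and -0.03. Its map opposed those of the astrocyte list (rho -0.562) and the myelin list (rho -0.528), and its mirror rho was 0.590 (0.580 without the 6 arrays of row D). It is the average of 2 rows that correlated at -0.08 and had an F of 1.13 and 1.28 on their own (limma adjusted p = 0.772 and 0.570). Of the 8 Rab-binding or Rab-regulating proteins, Rab11fip4, a Rab11 effector, had the largest F at 1.61 (adjusted p = 0.158) and was lowest at E6, with -1.57, -0.36 and -0.79.

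The question of the next comparison is whether the 2 ends of the grid rows differ. Rows A-B (18 positions) were compared with rows F-G (17 positions), with 1 difference per dataset and n = 3. No gene of the set passed, against 0.109% of all features (17 of 15610; limma, adjusted p under 0.05). At an unadjusted p under 0.05 the set had 8 genes, or 11.8%, against 9.03% of all features; 1 was higher in rows A-B (1.47%, against 3.15%) and 7 were lower (10.3%, against 5.88%). The difference was above 0 for 29 genes, or 42.6%, against 45.4% of all features. The median difference of the set was -0.03, and that of all features -0.02. Cplx1 averaged -0.54, 0.09 and -0.43 in rows A-B of datasets 1 to 3, against -0.07, 1.17 and 0.49 in rows F-G. Each dataset was lower for Cplx1 in rows A-B, although zone means overlapped between datasets, and the difference was -0.82 ± 0.32, or 1.76-fold lower (adjusted p = 0.218). Syn1 averaged -0.79, -0.14 and 0.15 in rows A-B, against -0.18, 0.29 and 0.66 in rows F-G. Its difference of -0.52 ± 0.09 varied little between datasets (adjusted p = 0.284). The 4 measured cortical genes had a median difference of -1.40 in the same comparison, and 2 of them passed the test; the part of cortical tissue in the differences of Cplx1 and Syn1 was not tested. With arrays as units in a fit over all of them, 9 genes of the set passed, or 13.2%, against 12.7% of all features.

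Other genes had smaller or less regular differences between these rows. Rab3ip, an exchange factor for Rab8, had -0.48 ± 0.21 (limma adjusted p = 0.373). Rab26, a vesicle-associated Rab, had the largest positive difference, 0.49 ± 0.28 (limma adjusted p = 0.407). It averaged 0.79, 0.30 and 0.03 in rows A-B, against -0.01, -0.11 and -0.23 in rows F-G. Rab30 had 0.23 ± 0.11 and Rab1b, which acts between endoplasmic reticulum and Golgi, had 0.27 ± 0.29.

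**Figure D5:**
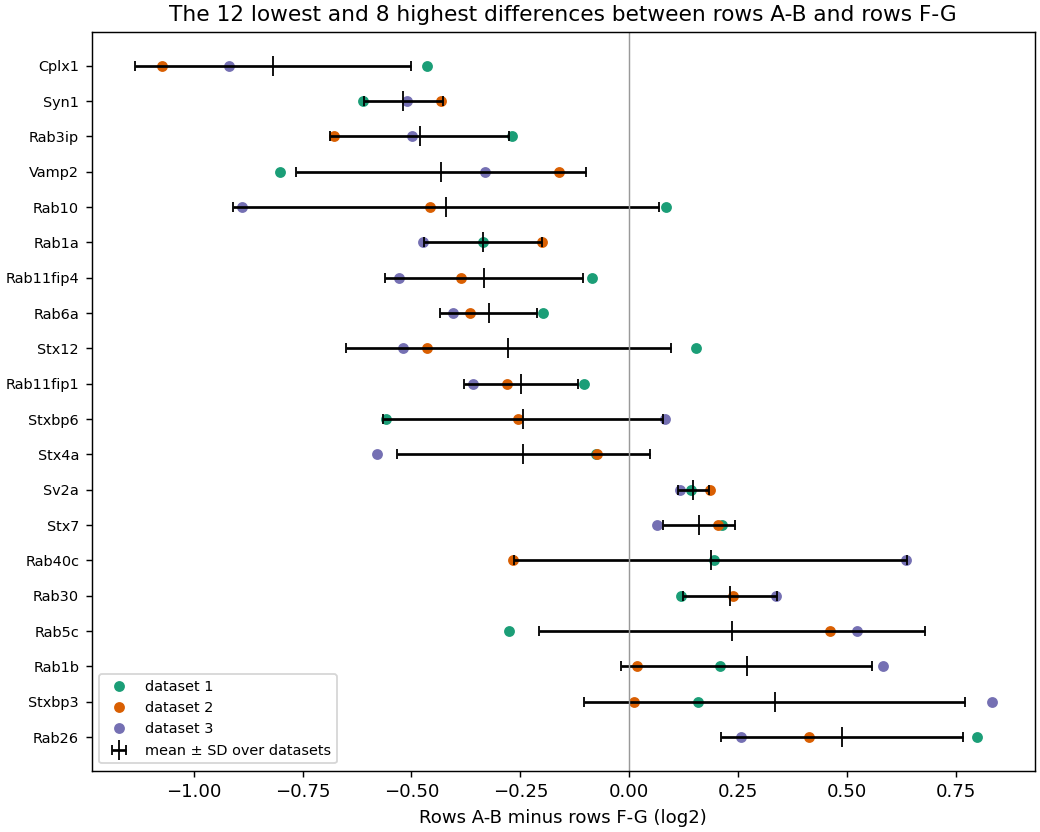
Difference of rows A-B minus rows F-G (log2, horizontal axis) for the 12 genes of the set with the lowest and the 8 with the highest mean difference; points are the 3 datasets and bars are the mean ± SD. Cplx1 (-0.82) and Syn1 (-0.52) are lowest and Rab26 (0.49) is highest.

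Columns near the middle of the grid were compared with the outer ones next. No gene of the set differed between columns 5-7 (21 positions) and columns 1-3 with 9-11 (33 positions), and 0% of all features did (limma, adjusted p under 0.05). Without the 6 arrays of row D, 0.295% of all features and still no gene of the set passed. At an unadjusted p under 0.05 there were 4 genes, or 5.88%, against 13.2% of all features. None was higher in columns 5-7, against 6.34% of all features, and all 4 were lower, against 6.82%. The difference was above 0 for 37 genes (54.4%, against 49.6% of all features). Syn1 averaged -0.56, -0.19 and -0.03 in columns 5-7, against -0.15, 0.04 and 0.44 in the outer columns, a difference of -0.37 ± 0.13 (adjusted p = 0.213, or 0.146 without the 6 arrays). Stx6, a syntaxin of the trans-Golgi network, averaged -0.58, -0.01 and 0.02 in columns 5-7, against 0.07, 0.21 and 0.30 in the outer columns. The difference of Stx6 was -0.38 ± 0.23 (limma adjusted p = 0.255). Rab38, a Rab of lysosome-related organelles, had -0.24 ± 0.10, and the 3 most positive differences by p were those of Rab2a (0.22 ± 0.20), Rab20 (0.19 ± 0.13) and Vamp8 (0.21 ± 0.21). With arrays as units 3 genes passed in this comparison, or 4.41%, against 8.21% of all features (Syn1, Rab38 and Rab2a).

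The sides of the grid and its edge gave no calls in the set either, with or without the 6 arrays of row D. Columns 1-5 against columns 7-11 in mirror pairs gave 0% of all features called, and at an unadjusted p under 0.05 the set had 6 genes (8.82%, against 3.34% of all features), of which 4 were higher in columns 1-5 (5.88%, against 1.84%) and 2 lower (2.94%, against 1.5%). The difference was above 0 for 26 genes (38.2%, against 48.8%). Vamp2 had the smallest p, with differences of 0.56, 0.35 and 0.16 (mean 0.36 ± 0.20, limma adjusted p = 0.958). Vamp4, a trans-Golgi VAMP, had 0.31 ± 0.23, Rab34 0.21 ± 0.12, Syn1 -0.17 ± 0.07, Rab9 -0.22 ± 0.17 and Rab3gap2 -0.16 ± 0.13. For the perimeter (26 positions) against the interior (42), 0.109% of all features passed, and the set had 4 genes at an unadjusted p under 0.05 (5.88%, against 13.4%). Of these, 3 were higher at the perimeter (4.41%, against 7.43%) and 1 lower (1.47%, against 5.95%), and the difference was above 0 for 34 genes (50%, against 58% of all features). Syn1 averaged 0.33 ± 0.11 more at the perimeter (limma adjusted p = 0.216), with differences of 0.46, 0.24 and 0.28. In the same comparison 3 of 4 measured myelin genes and 2 of 7 striatal genes passed the test, and their part in the Syn1 difference was not tested. Rab1a had 0.30 ± 0.11, Rab3il1 0.24 ± 0.03, Rab10 -0.33 ± 0.27, Rab31 -0.18 ± 0.09 and Rab18 -0.15 ± 0.02. With arrays as units 8 genes passed, or 11.8%, against 13.4% of all features.

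Other genes of vesicle release and recycling, from a list of 107 with 65 measured, gave 7 called among positions (10.8%, against 4.91% of all features) and 0 in each zone comparison (0.109% of all features for rows A-B against F-G and for the perimeter, and 0% for the columns and the sides). Unc13c, a vesicle priming protein of the Munc13 family, had the largest F at 4.99 (limma adjusted p = 1.7e-12). It was highest at C4, with 0.97, 2.19 and 1.97, and lowest at F9, with -0.58, -1.30 and -1.48, and C4 and F9 are both high positions of Cplx1. Rph3a, rabphilin, which binds Rab3 on vesicles, had an F of 3.05 and a rho of 0.433 with Cplx1 and 0.472 with Syn1. Lin7b, a scaffold protein of synapses, was lowest at E5 (-0.99, -0.78 and -0.95) and had a rho of 0.765 with Syn1. Vat1 had an F of 3.54 and was highest at A6, with 1.66, 2.15 and 2.05, where Syn1 and Cplx1 were low. Bloc1s1, Vti1b and Sypl were the others. The median F of the 65 genes was 1.08.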

How the data were processed

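Voxel and whole brain RNA were compared in 1 deposited table of log2 ratios (20847 rows, 192 arrays), row-centred by the authors: 99.9% of rows had a median within 0.001 of 0. How the arrays were scanned and normalized is not given in the sources. Values at the floor (-6.64) were treated as missing, arrays were centred on their median over rows measured on every array (shift -0.35 to 0.29), rows measured on at least 80% of arrays of every dataset were kept, and rows of the same symbol were averaged. Control rows (20) were left out, and 49 rows with a symbol of another species stayed unnamed. limma 3.58.1 in R 4.3.3 gave moderated F tests over positions with dataset as a block, and tests of 1 difference per dataset for zones, adjusted over 15610 features. On simulated data with 15610 features, the F test called 86 of 100 changed by 1 (log2), 100 of 100 changed by 2 and 9 of 15410 unchanged. The test of rows A-B against F-G called 96, 100 and 6. The change was added evenly to all positions of rows A-B, and the noise was independent between arrays apart from a shift per dataset. Real arrays need not vary in that way, so these counts do not give the power of the tests on the real data. Array precision is limited by the number of arrays. The p-values of the zone tests rest on the spread between harvests. In the zone tests and the F test, limma drew each feature's variance towards that of all features. A p therefore does not rest on the spread of that feature alone. The F test takes arrays as units, so its p-values rest on the spread of arrays around their position and dataset. Arrays of a dataset were treated as independent there.

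Missing or floor values took 0.240% to 41.5% of an array (median 1.51%). Arrays of a dataset correlated at -0.449 at the lowest (median 0.140), and 0.0824% of pairs lay under -0.3. Dataset numbers name independent harvests per the labels, and deviations of arrays from position means correlated at a median of 0.237 within a dataset. A fixed rule named genes with values: all called genes and the 3 smallest p in each direction of each zone comparison. It also named the largest F per role, the lowest F, and the core release genes. Genes with the highest map correlation and the row-level Snap23 values were chosen after values were seen. So were the blocks of positions and the positions that part Cplx1 from Syn1. The genes and lists were chosen with earlier results of these data known.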

Additional observations from a re-analysis of the deposited data

How the results depend on the processing

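Of the alternatives for single named genes, 434 kept direction and side of the threshold, 29 crossed to the called side, 3 left it and 0 reversed. An F has no direction, so for the position test only the side of the threshold could change. Where rows were tested singly, the row with the smallest p stood for its gene. The count of genes called among positions (2) was 4 with quantile normalization (Stx7 and Stxbp6 added), 1 with no replicate block (Syn1 F 1.73) and 28 with array weights, whose estimation stopped before convergence and which called 5097 of all features. Leaving out 1 dataset gave 1 to 2: Cplx1 was not called without replicate 2 (F 1.97) or without replicate 3 (F 1.90), and Syn1 stayed called in each. With only rows measured on every array, fewer features were tested. The set then had 2 of 33 genes called among positions (6.06%, against 8.85% of all features). For rows A-B against F-G it had 2 of 33 (Cplx1 and Syn1, 6.06%, against 2.18% of all features). It had 1 for the columns (Syn1, 3.03%, against 2.85%) and 1 for the perimeter (Syn1, 3.03%, against 1.82%). Contrasts within the fit over arrays, with the replicate block, take arrays as units and called 9 genes for rows A-B against F-G (13.2%, against 12.7% of all features), 3 for the columns (4.41%, against 8.21%) and 8 for the perimeter (11.8%, against 13.4%). The cause was not tested where a call changed otherwise. Zone tests rest on n = 3, which limits what they can detect.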
